A study of Mus musculus with 4 samples.

Results

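The genes described here encode the Wnt ligands, their Frizzled receptors and the secreted proteins that block them. They were taken by name from the gene symbols of the array: every Wnt and Frizzled (Fzd) gene, Dkk1 to Dkk4, the Sfrp genes and Wif1, regardless of their values. This gave 38 of the 34761 genes or transcripts on the array, measured by 45 of its 55681 probes. There were 19 ligands, 10 receptors and 9 inhibitors (4 Dkk genes, 4 Sfrp genes and Wif1), and 7 of the 38 genes had more than 1 probe.

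The study asked how the kinase AKT changes the early reprogramming of mouse embryonic fibroblasts (MEFs) towards induced pluripotent stem cells. The MEFs came from a mix of several male mid-gestation embryos, and all carried an Oct4-EGFP transgene, in which the Oct4 promoter drives a fluorescent reporter. All received retroviruses for Oct4, Sox2 and Klf4 (OSK), and RNA was taken at 8 days postinfection (dpi). OSKA cells received a further retrovirus for AKT-MER, a myristoylated AKT joined to a modified estrogen receptor, which 4-hydroxytamoxifen (4OHT) switches on. The 4 groups were OSK -4OHT, OSK +4OHT, OSKA -4OHT (AKT-nonactivated cells) and OSKA +4OHT (AKT-activated cells), and 4OHT or its ethanol vehicle was given from 3 dpi. Infected dishes hold cells that took up different sets of viruses, and each array measured the whole mixture. Each group was measured on 1 single-colour Agilent array, so no difference has a replicate check and no test or p-value is given. The error beside a difference is that of the scanner software, which covers the measurement of a spot and not the variation between cultures.

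Wnt proteins are secreted, lipid-modified signals that bind Frizzled receptors on the cell surface. In the canonical branch, Frizzled and the co-receptors Lrp5 and Lrp6 stop the destruction of β-catenin, which then enters the nucleus and acts with TCF and LEF factors. In other branches, typified by Wnt5a and Wnt11, Frizzled receptors act on cell polarity and movement without β-catenin. Sfrp proteins and Wif1 bind Wnt proteins outside the cell, and Dkk1 blocks Lrp5 and Lrp6. Canonical Wnt signalling is known to influence reprogramming and the maintenance of pluripotent cells, while fibroblasts make several of these ligands and inhibitors themselves.

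All levels are log2 intensities minus the 75th percentile of that array, so 0 is the 75th percentile. A level was not compared between probes, whose brightness also depends on their sequence. The 75th percentile of intensity was 377 to 462 on the 4 arrays, and 52.4% to 55.4% of spots were well above background. As a check of the labels, Esr1, whose product is the estrogen receptor, was at 3.11 and 3.32 on the OSKA arrays and did not reach background on those of OSK cells, a difference of at least 219-fold. Akt1, also checked, was at 5.82 to 5.91 on the 4 arrays and showed no such difference. Neither gene tells whether AKT-MER was active. The fibroblast markers were above background on every array (10 of 10), and so were 6 of 10 pluripotency markers (Nanog, Dppa3, Dppa5a, Tdgf1, Utf1 and Lin28a), while Zfp42, Dppa2, Dppa4 and Esrrb were on none. The macrophage markers were also above background on every array (7 of 7). In such bulk samples, fewer cells of a type and less RNA per cell cannot be told apart.

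The sequences of 3 probes are shown because each lies further 5′ in its transcript than a second probe of the same gene, so that the members' values can be set against another stretch of that transcript. Each is given 5′ to 3′ as on the array. Capitals mark the TGA that ends the Wnt1 probe. In NCBI37, the build of the files, the Wnt1 probe lies at chr15:98623276-98623335, the Fzd2 probe at chr11:102467613-102467672, and the Wnt4 probe spans chr4:136851690-136852258, which is longer than its 60 bases, so it is not contiguous in the genome.
Wnt1: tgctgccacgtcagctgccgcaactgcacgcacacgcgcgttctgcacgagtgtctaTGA
Wnt4: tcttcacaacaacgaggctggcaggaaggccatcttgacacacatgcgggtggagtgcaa
Fzd2: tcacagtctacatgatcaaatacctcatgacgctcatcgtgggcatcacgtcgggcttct

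Most of the family was detectable. Of the 38 genes, 27 were well above background on at least 1 array, and 24 were so on all 4. Over all genes on the array, 65.2% were above background on at least 1 array. The shares by role were 11 of 19 ligands, 9 of 10 receptors and 7 of 9 inhibitors. The 11 genes never above background were the ligands Wnt2b, Wnt3, Wnt3a, Wnt7b, Wnt8a, Wnt8b, Wnt9b and Wnt10b, the receptor Fzd10 and the inhibitors Dkk1 and Dkk4. They include Wnt3a, the ligand most used to activate the canonical branch, and Dkk1, itself a known target of β-catenin. By array, 25 members were above background in OSK -4OHT, 24 in OSK +4OHT and 27 in both OSKA arrays. Over all genes these counts were 20752, 20450, 21395 and 20868, and the lowest level that counted as above background was -4.67, -4.54, -4.90 and -4.77, lower on the OSKA arrays. Wnt7a, for one, was counted in OSKA -4OHT at a level no higher than its readings in OSK cells. The genes seen on some arrays only were Wnt6 and Wnt7a, above background on the OSKA arrays alone, and Sfrp5, which missed it on the OSK +4OHT array.

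**Figure D1:**
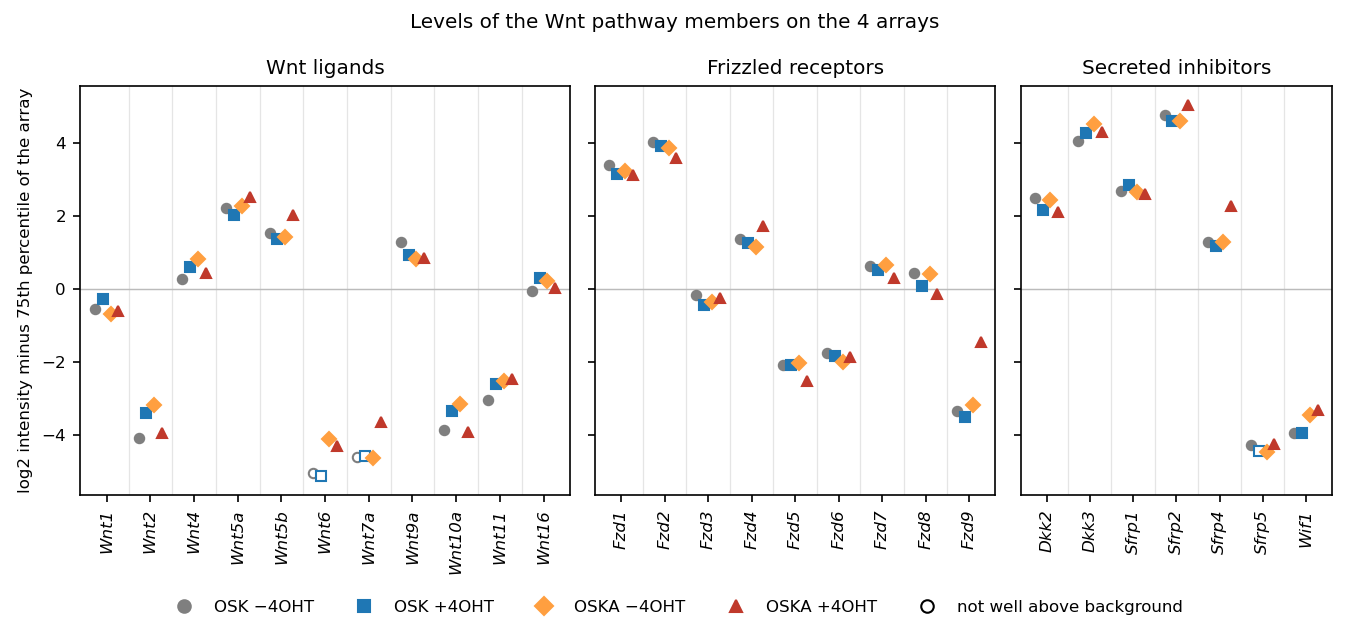
Level of each of the 27 detected genes on the 4 arrays (y axis, log2 intensity minus the 75th percentile of the array), by role; each point is 1 array, and open points were not well above background. The OSKA +4OHT array stands above the other 3 for Fzd9 (-1.47 against -3.51 to -3.19) and Sfrp4 (2.28 against 1.18 to 1.28).

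The OSKA +4OHT array, the only one of AKT-activated cells, differed most from the others in Fzd9 and Sfrp4. In the 4OHT effect in OSKA cells (OSKA +4OHT minus OSKA -4OHT), 27 members were measured on both arrays. Of these, 14 were higher and 13 lower with 4OHT, their median difference was 0.02 and that of all genes -0.03. Fzd9 and Sfrp4 were at least 2-fold higher, 2 of 27, and no member was at least 2-fold lower. Over all 20284 genes measured in this contrast, 2.01% were past 2-fold upwards and 0.897% downwards. In the AKT-MER effect with 4OHT (OSKA +4OHT minus OSK +4OHT), 24 members were measured, and the same 2 genes were at least 2-fold higher and none lower. The shares of all genes there were 1.92% higher and 1.12% lower. These contrasts share the OSKA +4OHT array.

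The other contrasts held smaller differences between members. In OSK cells, which carry no AKT-MER, no member differed by at least 2-fold with 4OHT on its brighter or only probe. A second Wnt1 probe, described below, did. Among all genes, 0.61% were past 2-fold upwards and 0.277% downwards. The 24 measured members ranged from -0.36 to 0.70, with a median of -0.10. The AKT-MER effect without 4OHT (OSKA -4OHT minus OSK -4OHT) ranged from -0.46 to 0.92 over 25 members. None reached 2-fold on its brighter or only probe, while the second Wnt1 probe did. The shares of all genes past 2-fold in this contrast were 1.09% higher and 0.927% lower. Since the spread of all genes also differed between contrasts, with an SD of 0.30 in the 4OHT effect in OSK cells and 0.39 in OSKA cells, smaller differences of the members in OSK cells are not particular to them.

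**Figure D2:**
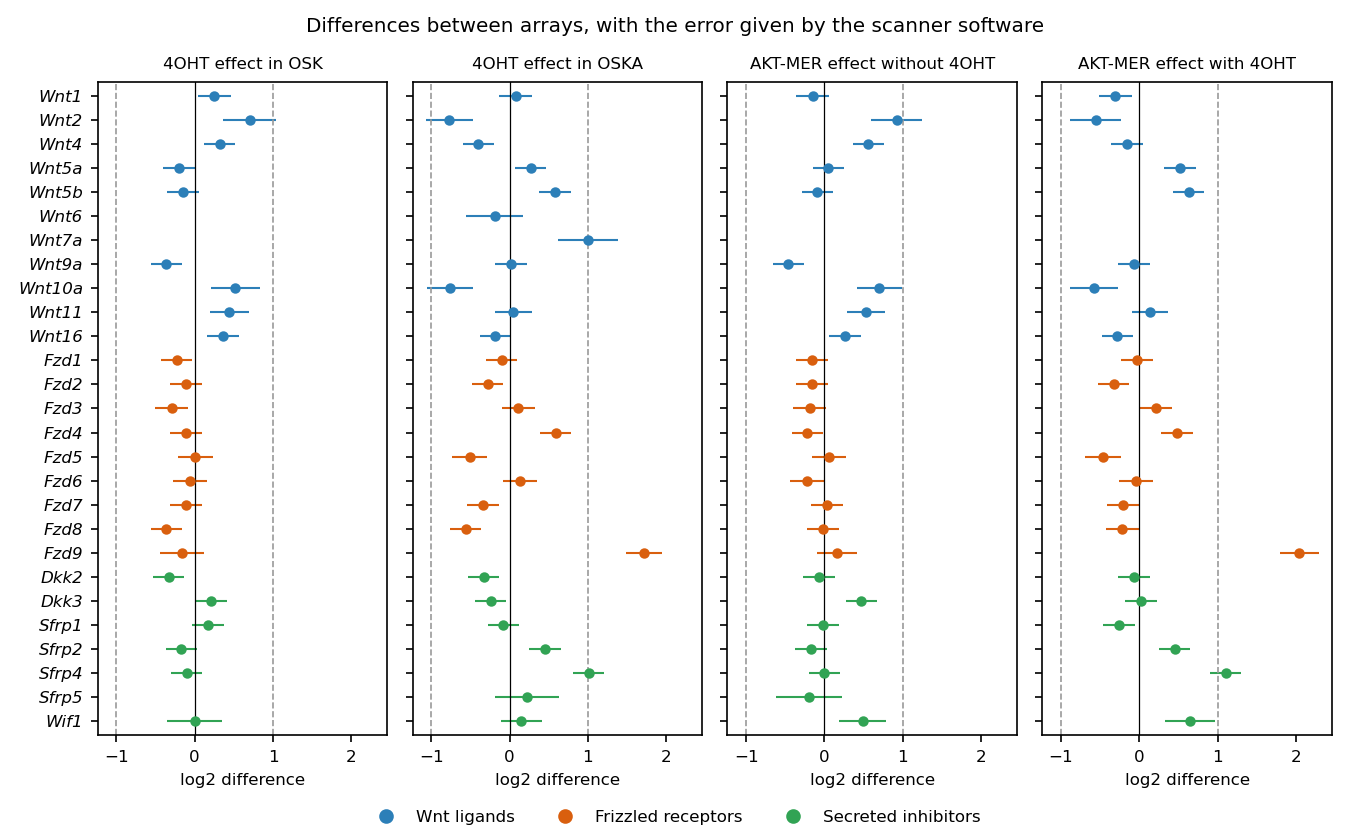
Log2 difference between 2 arrays (x axis) for each detected gene in the 4 contrasts; points are single differences, bars the error given by the scanner software, dashed lines 2-fold, and genes without a point were not well above background on both arrays. Only Fzd9 and Sfrp4 lie beyond 2-fold, at 1.72 and 1.01 for 4OHT in OSKA cells and at 2.04 and 1.10 for AKT-MER with 4OHT.

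Among the ligands, Wnt5a and Wnt5b, which signal mainly without β-catenin, were highest in AKT-activated cells. Wnt5b was at 1.52 in OSK -4OHT, 1.37 in OSK +4OHT, 1.43 in OSKA -4OHT and 2.01 in OSKA +4OHT. The first 3 arrays lay close together and the activated one stood above them, with a 4OHT effect in OSKA cells of 0.58 (error 0.20) against -0.15 in OSK cells. Wnt5a was at 2.21, 2.02, 2.26 and 2.53 in the same order of arrays. Its 4OHT effect in OSKA cells was 0.27 (error 0.20), about as large as the 0.25 between the highest and lowest of the other 3 arrays.

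Wnt7a, a ligand known from limb patterning and neural development, was a dim gene near the 2-fold line. Its levels were -4.61 and -4.57 on the OSK arrays, where it was not well above background, -4.64 in OSKA -4OHT and -3.65 in OSKA +4OHT. The activated array stood alone, and the 4OHT effect in OSKA cells was 1.99-fold, just under the 2-fold line, with an error of 0.38 on the log2 scale. Against OSK +4OHT it was at least 1.86-fold higher. Its raw intensity there was 30.6 against 16.1 in OSKA -4OHT, and with normexp background correction and quantile normalization the difference was 0.27, while quantile normalization alone and spike-in scaling put it past 2-fold, at 1.01 and 1.04. Wnt6, which is made by many epithelia, was at -4.12 in OSKA -4OHT and -4.31 in OSKA +4OHT and not well above background on the OSK arrays, at -5.06 and -5.13. The AKT-MER effect on Wnt6 was thus at least 1.46-fold in the absence of 4OHT and at least 1.18-fold in its presence. These bounds are 0.55 and 0.24 on the log2 scale and carry no error of their own. The raw intensity of Wnt6 on the OSKA arrays was 23.2 and 19.4, and the error of the difference between them was 0.36, so the bounds are not firm.

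Wnt2, which is known for its part in placenta, lung and vessel development, and Wnt10a, known from tooth and skin development, were both low in OSK -4OHT and in OSKA +4OHT and higher in OSK +4OHT and OSKA -4OHT. Wnt2 was at -4.10 in OSK -4OHT, -3.41 in OSK +4OHT, -3.19 in OSKA -4OHT and -3.96 in OSKA +4OHT. Its 4OHT effect was 0.70 (error 0.34) in OSK cells and -0.77 (error 0.30) in OSKA cells. Wnt10a was at -3.87, -3.35, -3.17 and -3.93, and its 4OHT effects were 0.52 (error 0.31) and -0.76 (error 0.29). Both were dim, and after normexp with quantile normalization their 4OHT effects shrank to 0.24 and 0.17 in OSK cells and to -0.26 for both in OSKA cells. The signs did not change. The macrophage markers moved partly in the same way. Of these 7 genes, 6 were higher with 4OHT in OSK cells (median 0.60) and 1 in OSKA cells (median -0.09). With AKT-MER in the absence of 4OHT, 6 were higher (median 0.59). Their summed intensity, relative to the 75th percentile, was 172 in OSK -4OHT and 243 in OSK +4OHT. It was 240 in OSKA -4OHT and 217 in OSKA +4OHT, so it stayed above that of OSK -4OHT. The part of these cells in the ligand values was not tested.

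Wnt4, a ligand of kidney and gonad development, was at 0.28, 0.60, 0.83 and 0.44 on its brighter probe, again lowest in OSK -4OHT. The probe printed above was at -2.46, -2.65, -2.28 and -2.94. Both probes were lower with 4OHT in OSKA cells, at -0.40 and -0.66. In OSK cells they disagreed, at 0.32 on the brighter and -0.20 on the printed probe. Wnt16, known from bone and joint tissue, was at -0.05, 0.31, 0.21 and 0.03, and its 4OHT effect in OSKA cells was -0.18 on this probe and 0.05 on the other. Both probes were highest in OSK +4OHT, and the order of the other arrays differed between them.

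Wnt11, Wnt9a and Wnt1 differed by at most 0.53 in any contrast on their brighter or only probe. Wnt11 was at -3.06 in OSK -4OHT and between -2.62 and -2.48 on the other 3 arrays. Wnt9a, which acts in joint formation, was at 1.29 in OSK -4OHT and between 0.83 and 0.93 on the others. The OSK -4OHT array is therefore the one that stands apart for both, low for the first and high for the second. Wnt1, the founding member of the family and a canonical ligand, was at -0.54, -0.29, -0.68 and -0.60 on the probe that begins at base 2310 of its transcript. The probe printed above, which begins at base 1385, gave another picture. It was well above background in OSK -4OHT alone, at -3.02, and read -6.61, -6.96 and -6.78 on the other arrays. On that probe Wnt1 was at least 2.87-fold lower with 4OHT in OSK cells and at least 3.68-fold lower in OSKA cells without 4OHT. The other probe put the same contrasts at 0.25 and -0.15. Each was a single spot. Wnt1 enters the counts of members with the brighter probe, and the printed probe does not bear those values out.

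Of the 9 ligands measured on all 4 arrays, 6 were higher with 4OHT in OSK cells, with a median of 0.32, and 5 in OSKA cells, with a median of 0.02. Over all genes, 49.4% and 45.2% were higher in these contrasts. The first of these depended on the scaling. With spike-in scaling, which moved the median of all genes in OSK cells to -0.30, 5 of 9 were higher and the median was 0.02.

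Among the receptors, Fzd9 showed the largest difference of any member on its brighter or only probe. Fzd9 is a Frizzled known from bone-forming cells, brain and muscle. It was at -3.35 in OSK -4OHT, -3.51 in OSK +4OHT, -3.19 in OSKA -4OHT and -1.47 in OSKA +4OHT. The first 3 arrays spanned 0.32 and the activated array lay 1.72 above the highest of them. The 4OHT effect was -0.16 (error 0.28) in OSK cells and 1.72 (error 0.23) in OSKA cells, a 3.29-fold difference. The AKT-MER effect was 0.16 without 4OHT and 2.04 (error 0.25) with it, a 4.10-fold difference. In raw intensity, Fzd9 read 138 on the activated array and 33.1 to 45.4 on the others. Of the 20284 genes measured for 4OHT in OSKA cells, 0.493% were at least as much higher as Fzd9. The size depended on the background correction, since normexp with quantile normalization gave 1.05 and 1.14 for these contrasts. Fzd9 has 1 probe, at chr5:135724815-135724874 in NCBI37, so no other stretch of its transcript was measured. Of the 6 osteoblast markers, Bglap (osteocalcin) was above background in OSKA +4OHT alone, at -2.39. Alpl was at -3.08 in OSKA -4OHT and -1.58 in OSKA +4OHT, Runx2 was at -1.97 and -2.41, and Sp7, Ibsp and Dmp1 were above background on no array. The part of bone-forming cells in the Fzd9 values was not tested.

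Fzd4, the receptor of vessels of the retina, also stood highest in AKT-activated cells. It was at 1.36, 1.25, 1.14 and 1.73, and its 4OHT effect was -0.11 in OSK cells and 0.59 (error 0.20) in OSKA cells. Fzd5, a receptor needed in gut and placenta, went the other way at -2.09, -2.08, -2.03 and -2.54. Its 4OHT effect in OSKA cells was -0.51 on this probe and -0.44 on the other, while in OSK cells the probes gave 0.01 and -0.07. Fzd8 was at 0.43, 0.07, 0.41 and -0.15. It was lower with 4OHT in both kinds of cell, at -0.36 in OSK and -0.56 in OSKA, so its difference was not limited to cells with AKT-MER.

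Fzd2 and Fzd7 were lowest in AKT-activated cells by smaller steps. Fzd2 was at 4.03, 3.92, 3.87 and 3.59 on the probe printed above and at 0.67, 0.39, 0.54 and 0.25 on the probe that lies further 3′. The 4OHT effects in OSKA cells were -0.28 and -0.29, the same within the error of 0.20, and in OSK cells -0.11 and -0.28. Fzd7, the Frizzled linked to self-renewal of pluripotent cells, was at 0.63, 0.52, 0.66 and 0.31, with 4OHT effects of -0.34 in OSKA and -0.11 in OSK cells. Its other probe gave -0.23 and 0.01. The remaining receptors Fzd1, Fzd3 and Fzd6 differed by at most 0.29 in any contrast.

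By count, 8 of 9 receptors were lower with 4OHT in OSK cells, with a median of -0.11, and 5 of 9 in OSKA cells, with a median of -0.10. Over all genes, 50.6% and 54.8% were lower in these contrasts. Of these 8 differences, 3 exceeded the software error of about 0.20 (Fzd1, Fzd3 and Fzd8), and the other 5 lay within it.

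Among the secreted inhibitors, Sfrp4 was at 1.27 in OSK -4OHT, 1.18 in OSK +4OHT, 1.28 in OSKA -4OHT and 2.28 in OSKA +4OHT. Sfrp4 binds Wnt proteins outside the cell and is known from bone and from phosphate handling. The other 3 arrays lay within 0.10 of each other. The 4OHT effect was -0.10 in OSK cells and 1.01 (error 0.20, 2.01-fold) in OSKA cells, and the AKT-MER effect was 0.00 without 4OHT and 1.10 (2.15-fold) with it. It was bright, with an intensity of 1864 on the activated array. At 2.01-fold it was the member just inside the 2-fold line and Wnt7a the one just outside, and normexp with quantile normalization put Sfrp4 at 0.95 in OSKA cells. Sfrp2 moved the same way by less, at 4.77, 4.60, 4.60 and 5.05, with 4OHT effects of -0.17 and 0.45 (error 0.20 for each). Sfrp1 was at 2.68, 2.85, 2.66 and 2.59 and did not share the pattern.

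Wif1 was at -3.95, -3.96, -3.46 and -3.31, higher on both OSKA arrays, and the AKT-MER effect was 0.49 without and 0.65 with 4OHT (errors 0.30 and 0.32). After normexp with quantile normalization these were 0.15 and 0.27. Dkk3, a Dkk protein that is not known to bind Lrp5 or Lrp6, was at 4.06, 4.27, 4.53 and 4.29, lowest in OSK -4OHT. Dkk2 was at 2.50, 2.17, 2.43 and 2.10 with a 4OHT effect of -0.33 in both kinds of cell. Sfrp5 was at -4.28, -4.48 and -4.26 where it was above background, and -4.45 on the OSK +4OHT array, differences within its error of 0.41.

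Among the 24 members measured on all 4 arrays, 8 were highest and 8 lowest in OSKA +4OHT. The highest were Wnt5a, Wnt5b, Wnt11, Fzd4, Fzd9, Sfrp2, Sfrp4 and Wif1, and the lowest were Wnt10a, Fzd1, Fzd2, Fzd5, Fzd7, Fzd8, Dkk2 and Sfrp1. Over 19525 genes, this array was the highest of the 4 for 27.3% and the lowest for 37.5%, close to the shares of the members. With 4OHT, the difference in OSK cells and that in OSKA cells, which share no array, had opposite signs for 16 of the 24 members and the same sign for 7, with Wif1 at 0.00 in OSK cells. Over all genes, 49.5% had the same sign. The count of opposite signs was 15 to 17 under the other settings tried. Many of these differences were smaller than the software error.

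**Figure D3:**
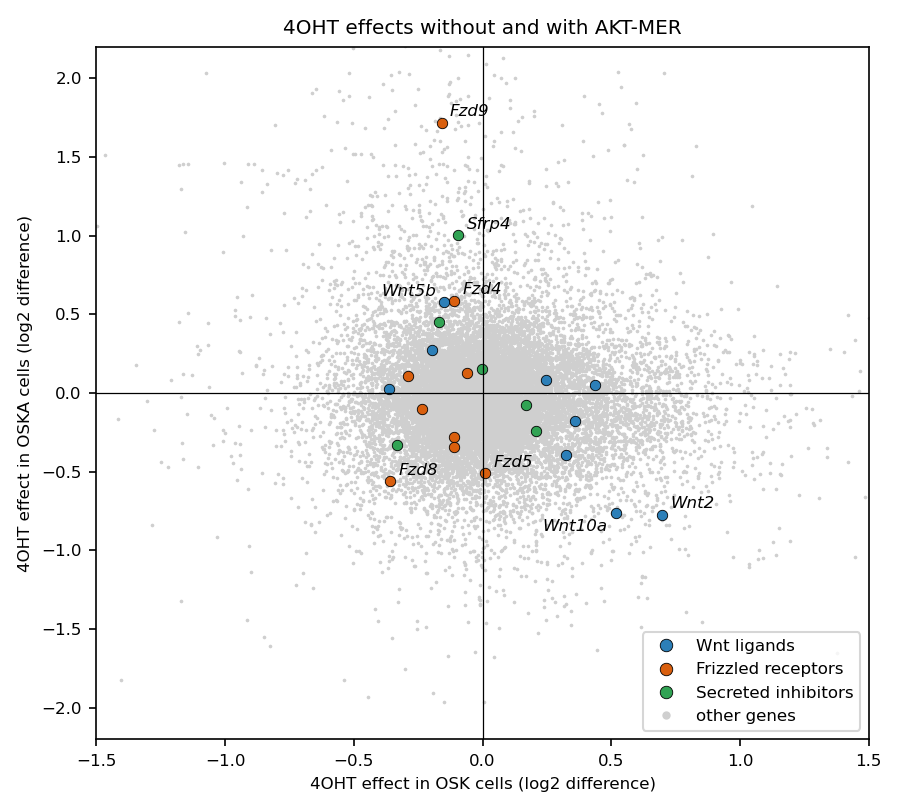
4OHT effect in OSK cells (x axis) against the 4OHT effect in OSKA cells (y axis), both log2 differences, for 24 members by role and for the other genes in grey; 44 of the 19501 other genes lie outside the axes. Fzd9 (-0.16 and 1.72) and Sfrp4 (-0.10 and 1.01) differ in OSKA cells only, while Wnt2 (0.70 and -0.77) and Wnt10a (0.52 and -0.76) take opposite signs.

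The promoters of the members were read to show what lies before the genes that were highest in AKT-activated cells. The RefSeq windows (GRCm38.p6, 250 bases before to 50 after a start) held 26 of the 38 members, and Sfrp4, Wnt5a and Wnt10a were among those not matched. The TCF and LEF core CTTTGA was searched on both strands, and so was the FOXO core GTAAACA, FOXO factors being known targets of AKT. CTTTGA was present for Dkk1, Fzd1, Wnt11 and Wnt5b, 4 of 26 members (15.4%), against 18.2% of all 27025 genes in the table. GTAAACA was present for 0 of 26, against 4.05% of all genes. A match is only a run of letters and not a shown site, and these letters may lie outside the windows. The 250 bases before the start are shown for Fzd9, at chr5:135251048-135251297 on the minus strand, which held neither run, and for 1 of the 3 starts of Wnt5b, at chr6:119449387-119449636 on the minus strand. Capitals mark CTTTGA, which begins 71 bases before that start. The windows of the other Wnt5b starts held neither run. The arrays do not tell which Wnt5b start was used.
Fzd9: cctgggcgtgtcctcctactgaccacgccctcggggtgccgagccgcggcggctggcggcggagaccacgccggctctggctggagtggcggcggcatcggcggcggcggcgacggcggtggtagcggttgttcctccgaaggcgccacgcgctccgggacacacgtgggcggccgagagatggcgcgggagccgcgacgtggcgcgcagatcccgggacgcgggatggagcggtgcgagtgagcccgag
Wnt5b: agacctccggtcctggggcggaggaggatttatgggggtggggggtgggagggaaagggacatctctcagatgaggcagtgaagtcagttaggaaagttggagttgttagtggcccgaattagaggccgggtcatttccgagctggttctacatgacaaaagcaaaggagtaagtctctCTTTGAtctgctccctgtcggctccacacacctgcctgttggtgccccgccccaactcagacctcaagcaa
The GC content of these stretches was 76.4% for Fzd9 and 55.6% for Wnt5b.

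Other genes of the pathway were taken from lists of 35 co-receptors, secretion factors and receptor-level regulators, 35 intracellular transducers and 30 known targets of β-catenin and TCF, some of which stand in more than 1 list. In the first list, 31 genes were measured for 4OHT in OSKA cells. Of these 20 were higher and 11 lower, and the median was 0.06. Over all genes, 45.2% were higher and the median was -0.03. At least 2-fold higher were 3 genes, Sostdc1, Apcdd1 and Celsr2, and none was 2-fold lower, against 2.01% and 0.897% of all genes. Sostdc1, a secreted inhibitor of BMP and Wnt signals, was at 2.13 and 2.12 on the OSK arrays, 1.86 in OSKA -4OHT and 3.58 in OSKA +4OHT. Its 4OHT effect in OSKA cells was 1.72 (error 0.20), and 1.63 on its other probe. Apcdd1, a membrane-bound inhibitor of Wnt signalling, was at 0.55, -0.22, -0.31 and 0.84, high in OSK -4OHT as well as in AKT-activated cells, with 4OHT effects of -0.77 in OSK and 1.14 in OSKA cells. Celsr2, a polarity cadherin, was 1.03 higher on its brighter probe and 0.21 on its other. The lowest in this contrast was Lgr5, a receptor of R-spondins, at -0.73. In the contrasts of AKT-MER, Celsr1 was at -1.25 without 4OHT and the R-spondin receptor Lgr6 at -1.28 with it, and Sostdc1 and Apcdd1 were at 1.46 and 1.06 with 4OHT. The co-receptors Lrp5 and Lrp6 differed by 0.23 and -0.41 with 4OHT in OSKA cells.

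The intracellular transducers had the narrowest range of the 3 lists for 4OHT in OSKA cells. All 35 were measured, and they ranged from -0.42 (Dvl2, at 0.00 on its other probe) to 0.40 (Tcf7l1), with a median of -0.03 and none past 2-fold. β-catenin itself (Ctnnb1) was at 4.25, 4.17, 4.03 and 3.96, and Gsk3b, the kinase that marks it for destruction, at 3.99, 4.05, 4.25 and 4.29. The spans of these 4 values were small beside those of Fzd9. Dvl3, which links Frizzled to the destruction complex, was 1.07 higher with 4OHT in OSK cells and 0.20 in OSKA cells. It was the only transducer past 2-fold in any contrast, and it was lowest in OSK -4OHT, at 2.25 against 2.84 to 3.32 elsewhere.

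Of the known targets of β-catenin and TCF, 22 of 30 were measured, and with 4OHT in OSKA cells 17 were lower and 5 higher, with a median of -0.25 against -0.03 over all genes, of which 54.8% were lower. In OSK cells 14 were lower and 8 higher, with a median of -0.07, where 50.6% of all genes were lower. Past 2-fold in OSKA cells were 2 targets in each direction, against 0.897% of all genes downwards and 2.01% upwards. The targets lower by at least 2-fold in OSKA cells were Fgf18, a growth factor, at -1.12 and at -1.04 on its other probe, and Ccn5 (Wisp2), a matricellular protein of fibroblasts, at -1.09. Fgf18 was at 4.49, 4.43, 4.29 and 3.17 and Ccn5 at 3.41, 3.40, 3.70 and 2.61, so the activated array was lowest for both. Apcdd1 and Sox9, a factor of cartilage and other progenitors, were higher by at least 2-fold, at 1.14 and 1.06. Sox9 was at -1.48, -1.80, -1.15 and -0.08. Axin2, the target most used as a readout of the canonical branch, was at -3.91, -3.85, -4.09 and -4.15. Its 4OHT effect in OSKA cells was -0.06, with an error of 0.36. These levels are close to the lowest that counted as above background, and its other probe was not measured for 4OHT. A change in Axin2 smaller than that error would thus not be seen. Lef1 was at -1.30, -1.46, -1.97 and -2.26, lower on both OSKA arrays. Myc was at 1.70, 1.47, 1.07 and 0.40, lowest in AKT-activated cells, with an AKT-MER effect of -1.07 with 4OHT. In that contrast Fgf18 was at -1.26, Sox9 at 1.72 and Apcdd1 at 1.06. Nkd1, a feedback inhibitor, was the only target past 2-fold for AKT-MER without 4OHT, at 1.03. These targets have other regulators too, and their mRNA is no direct measure of Wnt signalling.

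**Figure D4:**
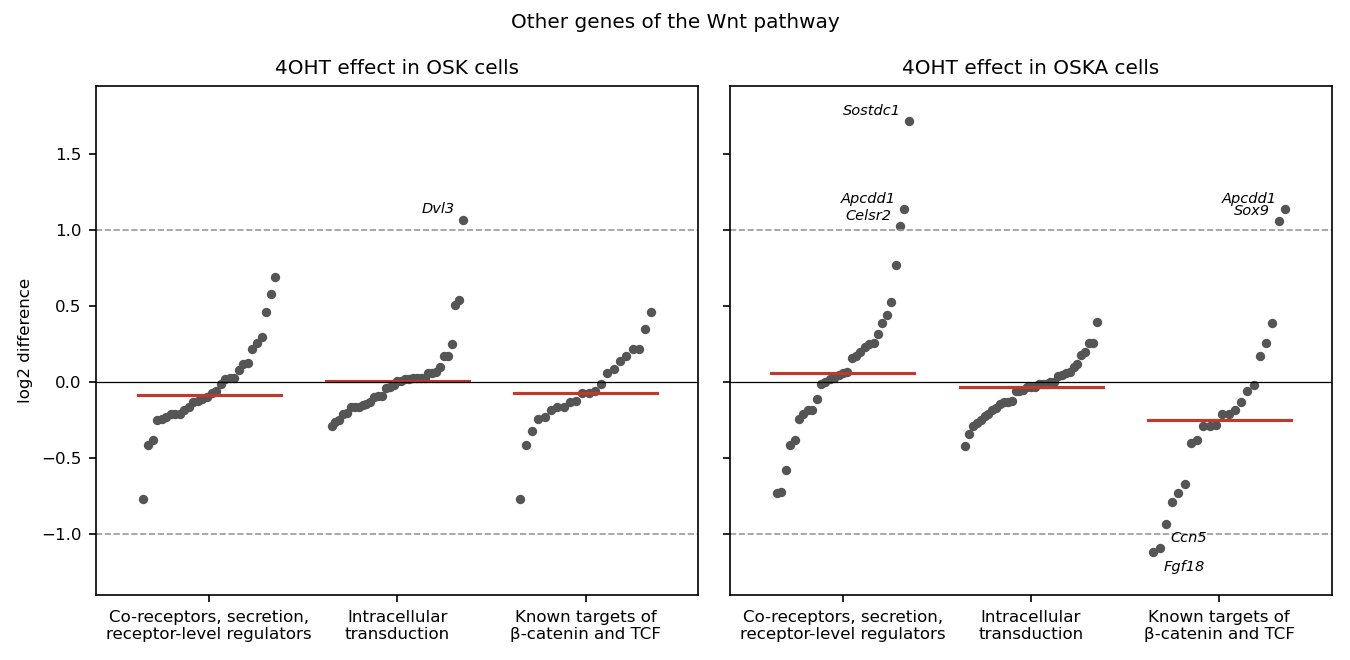
Log2 difference (y axis) with 4OHT in OSK cells (left) and OSKA cells (right) for the measured genes of the other 3 pathway lists, sorted within each list; points are genes, red lines medians, dashed lines 2-fold. In OSKA cells the transducers stay between -0.42 and 0.40, while Sostdc1 reaches 1.72 and the median of the targets is -0.25.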

How the data were processed

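RNA from 4 groups was measured on 4 arrays. Per the labels and methods, Cy3-labelled cRNA from 100 ng of RNA was hybridised and scanned in 1 channel on 1 slide. The deposited scanner files hold intensity, corrected for background by the authors with Agilent Feature Extraction 10.7.3.1 and not normalized between arrays. The deposited series matrix holds the same intensity, rounded (ratio 0.995 to 1.005), and was used as an alternative. The log2 intensity was taken minus each array's 75th percentile. A gene was represented by its probe with the highest mean. Differences were taken where both arrays were well above background. Where only 1 array was, a bound ("at least") was given, which puts the dim array at its own reading or at its lowest level above background, whichever was larger. Position on the slide and group cannot be told apart. With 4 arrays the precision is limited. The median SD among 10 spots of a probe was 0.058 to 0.067.

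Groups follow the sample titles. The title and the free-text description of the OSKA +4OHT array disagree on whether AKT-MER was active, and the title was used. Named genes were all members, pathway genes at least 2-fold changed, and the extremes of each list for 4OHT in OSKA cells. Lrp5, Lrp6, Ctnnb1, Gsk3b, Axin2, Lef1, Alpl, Runx2 and Bglap were named after their values were seen. The members and lists were chosen with earlier results of these data known. Symbols came from the files, and all 45 member probes carried the same symbol in RefSeq. Alternatives were quantile normalization, normexp background correction (offset 50, limma 3.58.1, R 4.3.3) with quantile normalization, scaling to 7 spike-in probes, other filters on dim probes, the mean of all probes, the series matrix and a 1.5-fold threshold. Python 3.11.15 with pandas 2.3.3 was used. The calculation was tested on simulated data. Where probes lie in exons or untranslated regions, and whether they match related genes, was not analysed here.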

Additional observations from a re-analysis of the deposited data

Results flagged for a closer look

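Wnt2 was flagged because its 4OHT effects took opposite signs, each beyond its 95% interval from the software error. It was 0.70 higher with 4OHT in OSK cells and 0.77 lower in OSKA cells (log2 difference -0.77), so the effects differed by -1.47. With 1 array per group the difference was not tested. The same rule was met by 360 of 19525 genes.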

How the results depend on the processing

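The alternatives were run for the members only, and no member's difference past 2-fold changed sign. The other pathway genes and second probes were not rerun. The median difference of the members moved with spike-in scaling, to -0.40 for 4OHT in OSK cells and -0.46 for AKT-MER without 4OHT, where the median over all genes became -0.30 and -0.46. Without the filter on dim probes, which counts all 38 members, those at least 2-fold higher were 1 (4OHT in OSK), 2 (AKT-MER without 4OHT) and 4 (AKT-MER with 4OHT), while 3.64%, 4.22% and 4.91% of all genes were past 2-fold upwards, and 1 was lower in each contrast with the OSKA +4OHT array, against 4.16% and 4.13% of all genes. With quantile normalization alone or spike-in scaling, Wnt7a joined Fzd9 and Sfrp4 for 4OHT in OSKA, 3 members in place of 2. At 1.5-fold, 1, 4, 2 and 4 members were higher in the order 4OHT in OSK, 4OHT in OSKA, AKT-MER without and AKT-MER with 4OHT, of 24, 27, 25 and 24 measured, against 4.33%, 5.06%, 5.66% and 5.46% of all genes, and 2 were lower for 4OHT in OSKA, against 4.62%. Normexp with quantile normalization left 1 member, Fzd9, 2-fold higher for 4OHT in OSKA. Of 100 single differences, 46 moved beyond the software error with spike-in scaling, 16 with normexp and 2 with the mean of all probes, and 10, 1 and 1 changed sign. With quantile normalization, the series matrix or no filter, 0 moved beyond it. No paired analysis was possible because each group has 1 array. Dim members (Wnt2, Wnt6, Wnt7a, Wnt10a, Sfrp5, Wif1) are the least precise. Outside OSKA +4OHT, Fzd9 was nearly as dim, with raw intensities of 33.1 to 45.4. Nothing here measures the variation between cultures.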
